A study of Mus musculus with 6 samples.

Results

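Transcripts of 8 marker genes of conventional dendritic cells type 1 (cDC1), namely Cadm1, Itgae, Cd8a, Ly75, Btla, Xcr1, Cd24a and Naaa, were followed in splenic cells of Atg16L1 hypomorphic and wild-type mice. A probe set was taken where the platform annotation names exactly 1 of the 8 genes, which gave 14 of 22625 non-control probe sets, for 7 of the 8 genes. Cadm1 had 4 probe sets, Cd24a 3, Cd8a and Naaa 2 each, and Itgae, Ly75 and Xcr1 1 each. Btla was not analysed here. Values are on the log2 scale, so a difference of 1 is a 2-fold change. Levels of different probe sets are not comparable with each other. With RNA from bulk cells, fewer cells of a type and less RNA per cell cannot be told apart.

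The cDC1 are the splenic dendritic cells best known for taking up dying cells and presenting their antigens to CD8+ T cells on MHC class I. They are told apart from the type 2 subset (cDC2) by a set of markers: the adhesion molecule CADM1, the integrin chain CD103 (Itgae), a homodimer of the CD8 alpha chain, the uptake receptor DEC-205 (Ly75), the inhibitory receptor BTLA, the chemokine receptor XCR1, the glycoprotein CD24 and the lysosomal amidase NAAA. Most of these proteins also occur on other cells. CD8 alpha is carried by T cells, CD24 and BTLA by B cells, and CD103 by some T cells of mucosal tissue.

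Their transcripts were measured with Affymetrix arrays in mouse spleen cells selected for CD11c by magnetic sorting, on 3 arrays from mice hypomorphic for Atg16L1 and 3 from wild-type mice. Both groups were on the C57BL/6J background, untreated and 8 weeks of age. A hypomorphic allele keeps part of its function, and Atg16L1 belongs to the complex that attaches LC3 to autophagic membranes. The labels give neither the construction of the allele nor the purity after selection, and they do not say that each replicate came from its own mouse, so the p-values cover the spread among these arrays alone, which may be technical.

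Genes that define the labelled cells were measured in both groups. Itgax (CD11c) read 9.87 to 10.01 on hypomorph arrays and 10.20 to 10.45 on wild-type arrays, the growth factor receptor gene Flt3 read 9.50 to 9.68 in the hypomorph and 9.83 to 10.14 in wild type, and the lineage factor gene Zbtb46 read 7.84 to 8.03 in the hypomorph and 8.36 to 8.66 in wild type. These levels do not give the purity of the cells, and macrophage genes, described further on, were higher in the hypomorph. Atg16l1 itself was at 6.13, 5.84 and 6.11 in the hypomorph against 7.05, 7.11 and 7.04 in wild type, a log2 change of -1.04 (SE 0.098, limma adjusted p = 0.0015). The genotypes also differed in controls. Hybridization controls averaged 10.3 to 10.4 on hypomorph arrays and 11.1 to 11.6 on wild-type arrays. Probe sets for 18S rRNA averaged 8.71 to 8.83 on hypomorph arrays and 9.30 to 9.67 on wild-type arrays. Bacterial poly-A spike-ins averaged 7.58 to 7.90 on hypomorph arrays and 8.95 to 9.96 on wild-type arrays, and for beta-actin the 3' end read higher than the 5' end by 0.69 to 0.77 on hypomorph arrays and by 0.94 to 1.02 on wild-type arrays. The title of wild-type replicate 1 holds another leading number than the other 5, with no meaning given for it, and this array had the lowest array weight, 0.35, and wild-type replicate 3 is titled with another version of the array. The part of these differences in the results below was not tested beyond the values given.

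Among the cDC1 markers, Cadm1 rose most, by about 2 to 3-fold on each of its 4 probe sets. Xcr1 rose 1.37-fold, and Cd8a rose 1.64-fold by 1 of its 2 probe sets. Itgae, Ly75, Naaa and Cd24a did not pass the test on any probe set. In counts, 6 of the 14 probe sets rose and 0 fell at a limma adjusted p under 0.05, with 1 lower at an unadjusted p under 0.05. Over all probe sets tested, 9.76% were called higher and 7.73% lower. The median log2 change of the 14 was 0.25, beside -0.04 over the 22625 tested. Of the 6 calls, 4 belong to 1 gene. Counted once per gene, by the probe set that is brightest on average over the 6 arrays, 2 of 7 genes were called higher (Cadm1 and Xcr1) and 0 lower, beside 9.63% and 8.32% of 12393 genes.

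**Figure D1:**
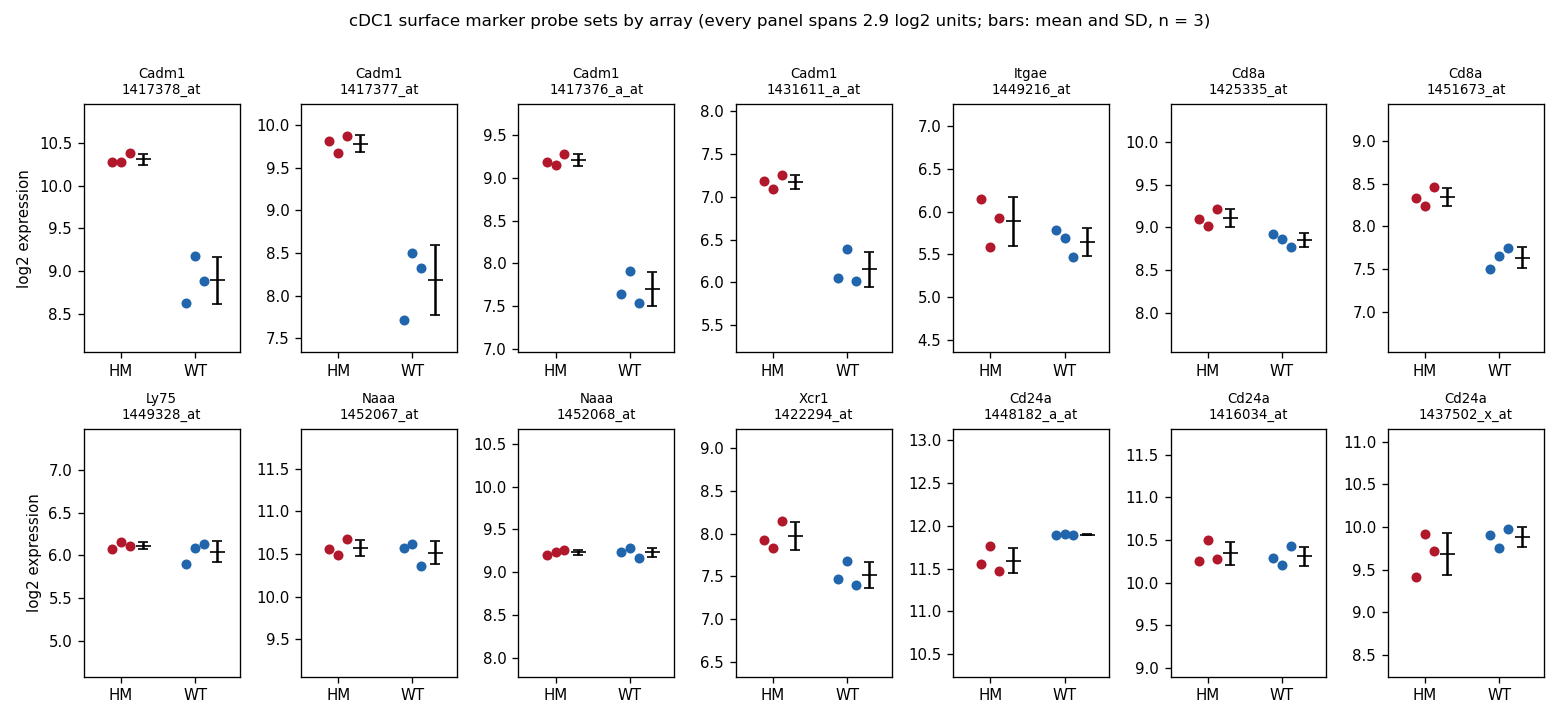
Log2 expression of each of the 14 probe sets on the 3 hypomorph (HM, red) and 3 wild-type (WT, blue) arrays, with group mean and SD beside the points; every panel spans the same number of log2 units. The hypomorph arrays lie above the wild-type arrays in 7 panels (4 of Cadm1, 2 of Cd8a, 1 of Xcr1), below them for Cd24a 1448182_a_at, and overlap them in the other 6.

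Hypomorph and wild-type arrays did not overlap for 8 of the 14 probe sets, 7 with higher and 1 with lower hypomorph values. Over the 22625 probe sets tested, 18.6% were higher without overlap, and 21.1% lower without overlap.

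Cadm1 encodes an adhesion molecule of the immunoglobulin superfamily that binds CRTAM on activated T and NK cells. Its brightest probe set, 1417378_at, read 10.27, 10.27 and 10.38 in the hypomorph and 8.62, 9.17 and 8.88 in wild type. The lowest hypomorph array thus stood above the highest wild-type array. The change was 2.67-fold (log2 1.41, SE 0.14, 95% interval 1.08 to 1.74, limma adjusted p = 0.00171).

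The other Cadm1 probe sets moved the same way. Probe set 1417377_at read 9.81, 9.67 and 9.87 in the hypomorph and 7.72, 8.50 and 8.33 in wild type, a 3.03-fold increase (limma adjusted p = 0.00333). Probe set 1417376_a_at rose 2.84-fold, with hypomorph arrays at 9.19, 9.15 and 9.28 and wild-type arrays at 7.64, 7.92 and 7.54 (limma adjusted p = 0.00104). The dimmest, 1431611_a_at, was designed from another transcript record than the 3 others and rose 2.04-fold, with 7.18, 7.09 and 7.25 in the hypomorph and 6.05, 6.39 and 6.01 in wild type (limma adjusted p = 0.00263). Replicate spread was narrower in the hypomorph, with SDs of 0.064 to 0.10 over the 4 probe sets, than in wild type, with SDs of 0.19 to 0.41.

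The size of the Cadm1 change differed between probe sets. The array-by-array difference between 1417376_a_at and 1431611_a_at lay between 2.0 and 2.06 in the hypomorph and between 1.53 and 1.59 in wild type, so their changes differed by 0.48 on the log2 scale. Each of the 3 brighter probe sets differed from 1431611_a_at without overlap between the genotypes, and these 3 did so from each other in no case. The two-sided exact permutation p was 0.1 for each of the 3 pairs without overlap, the smallest that 3 against 3 arrays can give (0.183 adjusted over the 11 within-gene pairs compared).

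All 4 Cadm1 calls held when any 1 array was left out, with limma adjusted p between 0.00116 and 0.022. Without wild-type replicate 1, among the 5 arrays whose titles share a leading number, the changes were 1.28, 1.37, 1.48 and 0.98 in the order above. With the poly-A spike-in level as a covariate they were 1.03, 0.74, 1.70 and 1.15 and none passed (limma adjusted p from 0.392 to 0.709), in a fit that called 0 of 22625 probe sets (2129 at an unadjusted p under 0.05). Tested against a minimum change of 1.5-fold, 1417378_at and 1417376_a_at passed (limma adjusted p = 0.0337 and 0.0163), and the other 2 Cadm1 probe sets, Cd8a 1451673_at and Xcr1 did not.

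**Figure D2:**
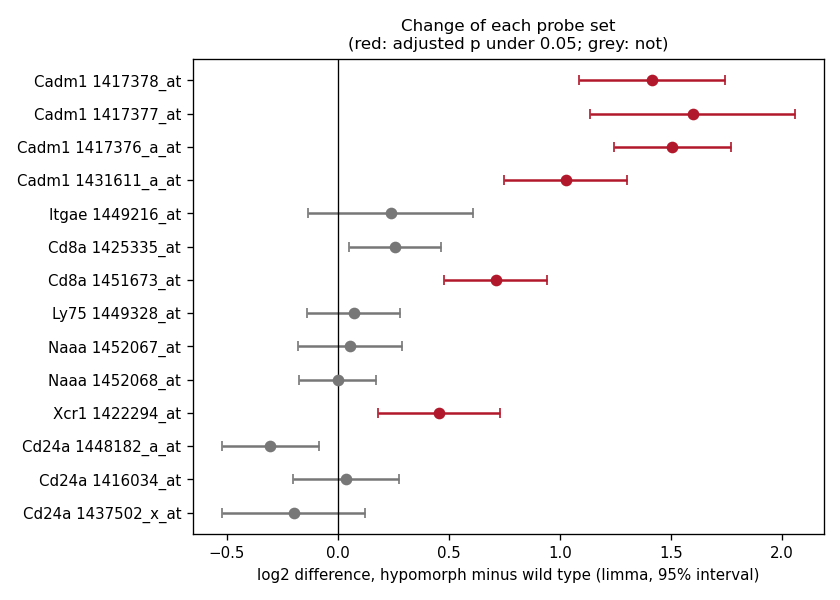
Log2 difference between the 3 hypomorph and 3 wild-type arrays for each of the 14 probe sets, with the 95% interval from limma; red marks an adjusted p under 0.05. The 4 Cadm1 probe sets lie between 1.03 and 1.6, Cd8a 1451673_at at 0.71 and Xcr1 at 0.46, and the 8 grey probe sets between -0.30 and 0.26.

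Xcr1 encodes the receptor for the chemokine XCL1 and, among mouse dendritic cells, is the marker most restricted to cDC1. Its single probe set, 1422294_at, read 7.93, 7.84 and 8.16 in the hypomorph and 7.47, 7.68 and 7.40 in wild type. The groups did not overlap, with a gap of 0.15 between hypomorph replicate 2 and wild-type replicate 2. The increase was 1.37-fold (log2 0.46, SE 0.12, 95% interval 0.18 to 0.73, limma adjusted p = 0.0392). This call held without wild-type replicate 2 (adjusted p = 0.0275) and was lost without any other single array, with limma adjusted p from 0.0703 without hypomorph replicate 2 to 0.127 without hypomorph replicate 3. The log2 change in those 6 fits ranged from 0.36 to 0.54.

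Cd8a encodes the alpha chain of CD8, the co-receptor for MHC class I, which cDC1 carry as a homodimer and cytotoxic T cells mostly as a heterodimer with the beta chain. By probe set 1451673_at it read 8.34, 8.24 and 8.46 in the hypomorph and 7.50, 7.66 and 7.74 in wild type, a 1.64-fold increase (log2 0.71, SE 0.098, limma adjusted p = 0.00509). By the brighter 1425335_at it read 9.09, 9.01 and 9.22 in the hypomorph and 8.92, 8.86 and 8.76 in wild type, a log2 difference of 0.26 (SE 0.088) that did not pass (limma adjusted p = 0.0869). It passed among probe sets above the median level (limma adjusted p = 0.0417) and with trend and robust fitting (0.0445). Hypomorph arrays were above wild-type arrays on both, and both probe sets were designed from the same transcript record. Their array-by-array difference was 0.76 to 0.77 in the hypomorph and 1.02 to 1.42 in wild type, so their changes differed by 0.45 (exact permutation p = 0.1).

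The call by 1451673_at held when any 1 array was left out (limma adjusted p from 0.0093 to 0.0304). The mean of both probe sets gave a log2 change of 0.49 (limma adjusted p = 0.00809).

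Cd8b1, which encodes the CD8 beta chain, was at 7.19, 6.54 and 6.73 in the hypomorph and 5.53, 5.69 and 6.38 in wild type. It rose 1.94-fold (limma adjusted p = 0.0419), a call that held without wild-type replicate 3 and was lost without any of the other 5 arrays. Between the genotypes, the other T cell genes did not rise with it. Of 13 T cell genes measured, Cd8b1 was the 1 that rose and 0 fell (limma), with a median log2 change of -0.24. Over all 12393 genes, 9.63% were called higher and 8.32% lower, with a median of -0.05. Cd3e, a chain of the T cell receptor complex, read 6.31, 6.22 and 6.13 in the hypomorph and 6.46, 6.25 and 6.66 in wild type (limma adjusted p = 0.217). The mean level of the T cell list, which includes Cd8b1, was 6.21, 6.01 and 6.07 in the hypomorph and 5.99, 6.12 and 6.69 in wild type. Within each genotype, its order over the arrays was that of Cd8b1. The part of T cell RNA in the Cd8a and Cd8b1 values was not tested.

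Of the genes with a probe set that rose, the RefSeq promoter table of GRCm38.p6 holds Xcr1 and Cd8a, the second of which rose by 1 of its 2 probe sets. It also holds Ly75, Naaa and Btla. The 250 bases before the start of transcription of Cd8a and Xcr1 are shown 5′ to 3′ on the strand of the gene, Cd8a from chr6:71373177-71373426 (+) and Xcr1 from chr9:123862030-123862279 (-). Capitals mark matches to the motifs described next.
Cd8a: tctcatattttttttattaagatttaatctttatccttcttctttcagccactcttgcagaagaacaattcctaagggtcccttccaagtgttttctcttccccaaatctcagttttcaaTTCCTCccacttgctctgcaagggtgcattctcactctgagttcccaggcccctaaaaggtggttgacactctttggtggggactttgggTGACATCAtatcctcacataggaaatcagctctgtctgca
Xcr1: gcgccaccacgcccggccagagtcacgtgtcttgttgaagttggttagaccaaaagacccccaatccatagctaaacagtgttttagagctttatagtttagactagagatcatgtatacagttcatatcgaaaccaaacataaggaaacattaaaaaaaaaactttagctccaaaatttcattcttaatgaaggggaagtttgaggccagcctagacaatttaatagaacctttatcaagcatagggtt

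The motifs were chosen after the sequences were seen and were searched on both strands. They were the AP-1 site TGANTCA, which factors of the BATF family bind with JUN, the interferon regulatory factor site of GAAA, any 2 bases and GAAA again, the CRE site TGACNTCA and the PU box GAGGAA of the myeloid factor PU.1. The Cd8a window held 1 CRE match and 1 PU box match, which do not overlap, and the Xcr1 window held 0 matches to the 4 motifs. Among 32851 promoter windows of this length, 7.49% held the CRE site, 23.3% the PU box, 6.75% the AP-1 site and 2.98% the interferon regulatory factor site. Both windows were low in G and C, at 42.8% for Cd8a and 38.8% for Xcr1, where the median window had 52.4%. The Ly75 and Naaa windows, of genes that did not pass, had 66.8% and 59.2%, and that of Btla, which has no expression value here, had 47.2%. The promoter table holds no window for Cadm1, Itgae or Cd24a. A relation between base content and the changes was not tested.

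Itgae encodes CD103, the integrin alpha E chain, which pairs with the beta 7 chain and binds E-cadherin. Its probe set 1449216_at read 6.15, 5.58 and 5.92 in the hypomorph and 5.78, 5.69 and 5.46 in wild type. The groups overlapped, and hypomorph replicate 2 lay below 2 of the 3 wild-type arrays. The log2 difference was 0.24 with a 95% interval of -0.13 to 0.61 (limma adjusted p = 0.342), so an increase of up to 1.53-fold lay inside the interval.

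Ly75 encodes DEC-205, an endocytic receptor that delivers antigen to processing compartments. Its probe set 1449328_at read 6.08, 6.16 and 6.11 in the hypomorph and 5.90, 6.09 and 6.14 in wild type, with overlap. The log2 difference was 0.07, with a 95% interval of -0.14 to 0.28 (limma adjusted p = 0.614).

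Naaa encodes an enzyme that hydrolyses N-acylethanolamines in lysosomes, and it is used as a cDC1 marker although it is not a surface protein. Probe set 1452067_at read 10.56, 10.49 and 10.67 in the hypomorph and 10.57, 10.62 and 10.36 in wild type. Probe set 1452068_at read 9.20, 9.23 and 9.26 in the hypomorph and 9.24, 9.29 and 9.17 in wild type. Both overlapped between the groups. The log2 differences were 0.06 and 0.00053 (limma adjusted p = 0.737 and 0.997), their 95% intervals ran from -0.18 to 0.29 and from -0.17 to 0.17, and both turned negative after quantile normalization.

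Cd24a encodes a small glycoprotein anchored by a lipid, which is present on cDC1 and also on B cells and red cell precursors. Its brightest probe set, 1448182_a_at, read 11.55, 11.76 and 11.47 in the hypomorph and 11.89, 11.90 and 11.90 in wild type. Each hypomorph array was below each wild-type array. The difference was 1.23-fold (log2 -0.30, SE 0.093, 95% interval -0.52 to -0.08) and did not pass (limma adjusted p = 0.0665). It passed after quantile normalization (log2 -0.39, limma adjusted p = 0.0308), with trend and robust fitting (0.0163) and among probe sets above the median level (0.0324).

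The 2 other Cd24a probe sets overlapped between the genotypes. Probe set 1416034_at read 10.26, 10.50 and 10.28 in the hypomorph and 10.29, 10.20 and 10.43 in wild type, with a log2 difference of 0.04 (limma adjusted p = 0.833) that was -0.04 after quantile normalization. Probe set 1437502_x_at, of a class whose probes may bind other transcripts too, read 9.42, 9.92 and 9.71 in the hypomorph and 9.91, 9.76 and 9.98 in wild type, with a difference of -0.20 (limma adjusted p = 0.364), of the same sign as 1448182_a_at. Their changes differed by -0.11, with overlap (exact permutation p = 0.4). Between 1448182_a_at and 1416034_at the array-by-array difference was 1.19 to 1.3 in the hypomorph and 1.47 to 1.70 in wild type, so the changes differed by -0.34, without overlap (exact permutation p = 0.1). Between 1416034_at and 1437502_x_at it was 0.56 to 0.84 in the hypomorph and 0.39 to 0.45 in wild type. Their changes differed by 0.24, also without overlap (exact permutation p = 0.1).

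Genes of B cells, which also carry CD24, were lower in the same hypomorph arrays. Of 14 measured, 8 fell and 0 rose, beside 8.32% and 9.63% of all genes, with a median log2 change of -0.62. Their mean level was 7.98 to 8.44 in the hypomorph and 8.54 to 8.86 in wild type. Cd22, an inhibitory receptor of B cells, fell by 0.74 on the log2 scale (limma adjusted p = 0.0046), and Cd79a, a signalling chain of the B cell receptor, fell by 0.79 (limma adjusted p = 0.0104, lost without hypomorph replicate 3). The number of B cell genes that fell was between 1 and 9 when 1 array was left out. Of 11 erythroid genes 0 rose and 1 fell (limma, 1 at an unadjusted p under 0.05), yet their median log2 change was 0.90. Their mean level was 5.33 to 6.66 in the hypomorph and 5.02 to 6.26 in wild type, with hypomorph replicate 3 at 5.33. Without that array 2 rose and 0 fell, and without wild-type replicate 2, 0 rose and 2 fell. The part of B cell and erythroid RNA in the Cd24a values was not tested.

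**Figure D3:**
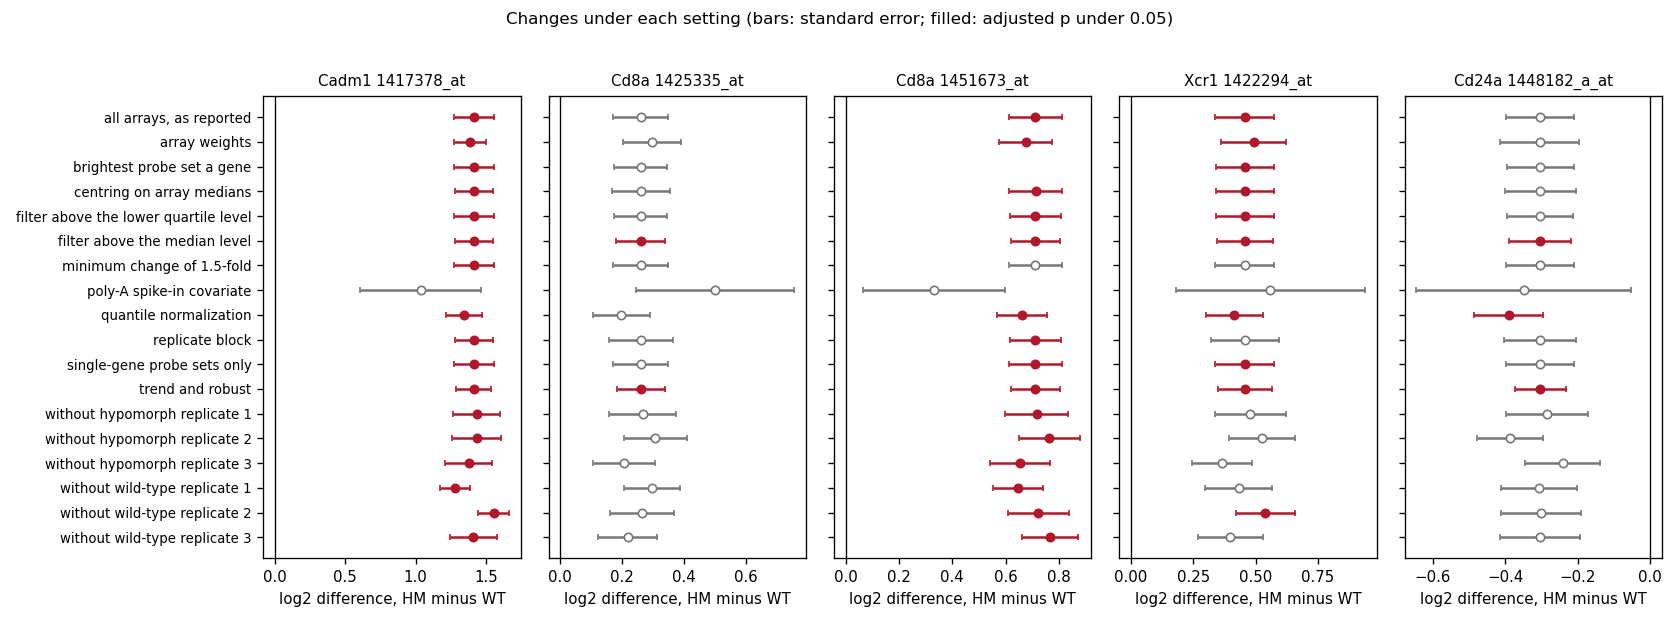
Log2 difference, hypomorph minus wild type, of 5 probe sets under every setting in which each could be fitted, with standard errors; filled red points have an adjusted p under 0.05, and the panels have their own horizontal scales. Cadm1 1417378_at is called in every setting shown except the spike-in covariate, Xcr1 loses its call without any single array other than wild-type replicate 2, and Cd24a 1448182_a_at is called in 3 settings.

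The binding partners and related enzymes of the marker proteins were a list of 13 genes, of which 10 were measured; 5 rose and 2 fell (limma), with a median log2 change of 0.41, where 9.63% of all genes were called higher and 8.32% lower. With 1 array left out, 3 to 5 rose, with 3 without each of the hypomorph arrays, and 0 to 3 fell, with 0 without hypomorph replicate 2 or 3 and 3 without wild-type replicate 2. Xcl1, the ligand of XCR1, made by NK and T cells, read 7.70, 7.53 and 7.43 in the hypomorph and 6.68, 7.13 and 7.15 in wild type. It rose 1.49-fold (limma adjusted p = 0.0383), a call lost without any 1 hypomorph array. Tnfrsf14, which encodes HVEM, the ligand of BTLA, was at 5.16, 5.21 and 5.22 in the hypomorph and 4.34, 4.38 and 4.23 in wild type, a 1.84-fold increase (limma adjusted p = 0.00133). Its values lay below the array medians of 5.65 to 5.71 in both genotypes. The genotypes did not overlap for either gene.

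The partners of CD103 moved apart from each other. Itgb7, the beta 7 chain, read 8.45, 8.23 and 8.19 in the hypomorph and 9.14, 8.76 and 8.75 in wild type. It fell by 0.59 on the log2 scale (limma adjusted p = 0.0246), and the call was lost without hypomorph replicate 2 or 3. Cdh1, which encodes E-cadherin, read 6.57, 6.37 and 6.33 in the hypomorph and 5.37, 4.60 and 4.81 in wild type and rose 2.82-fold (limma adjusted p = 0.00401). Its wild-type values lay below the array medians of 5.65 to 5.71.

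Crtam, the T and NK cell receptor for CADM1, read 5.12, 5.0 and 5.04 in the hypomorph and 5.62, 4.90 and 5.51 in wild type and did not pass (log2 difference -0.29, limma adjusted p = 0.318). Among the enzymes, Asah1, the acid ceramidase of the same family as NAAA, rose 1.92-fold (limma adjusted p = 0.00133). Faah, another amidase of N-acylethanolamines, fell by 0.31 on the log2 scale (limma adjusted p = 0.045, a call kept without wild-type replicate 2 and lost without any other array). It read 3.62, 3.65 and 3.75 in the hypomorph and 4.04, 3.89 and 4.01 in wild type, below the array medians of 5.65 to 5.71. The call was also lost after quantile normalization (limma adjusted p = 0.0747).

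Genes that build or accompany the cDC1 programme were a second list, of which 21 of 25 genes were measured. Of these, 3 rose and 1 fell (limma), beside 9.63% and 8.32% of all genes. The median log2 change of the list was 0.11, beside -0.05 over all genes. Its mean level was 8.29 to 8.38 in the hypomorph and 8.05 to 8.30 in wild type. Clec9a and Wdfy4 were not analysed here. Irf8, the factor on which cDC1 depend, read 11.29, 11.18 and 11.27 in the hypomorph and 11.34, 11.20 and 10.86 in wild type, with overlap (log2 difference 0.11, limma adjusted p = 0.601). Batf3, the AP-1 factor that maintains Irf8 in cDC1, read 9.33, 9.20 and 9.35 in the hypomorph and 9.996, 9.62 and 9.50 in wild type. All hypomorph arrays were lower, without passing (log2 difference -0.41, SE 0.14, limma adjusted p = 0.0834).

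Id2, an inhibitor of E proteins needed for cDC1 development, rose 1.56-fold, with 11.51, 11.41 and 11.48 in the hypomorph and 10.82, 10.96 and 10.71 in wild type (limma adjusted p = 0.00562). Of its 2 other probe sets 1 was called higher. Nfil3, an upstream factor of the lineage, read 8.15, 7.86 and 7.85 in the hypomorph and 5.43, 6.84 and 7.07 in wild type. It rose 2.84-fold (limma adjusted p = 0.0427), with a wild-type SD of 0.89 and wild-type replicate 1 lowest, and the call was lost without any 1 hypomorph array.

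Il12b, the p40 chain of interleukin 12, of which activated cDC1 are a major source, rose 3.85-fold (log2 1.94, SE 0.11, limma adjusted p = 0.000719). Tlr3, the sensor of double-stranded RNA abundant in cDC1, read 8.24, 8.22 and 8.56 in the hypomorph and 8.14, 8.21 and 7.90 in wild type and did not pass (log2 difference 0.25, limma adjusted p = 0.222). Itgb7 was the 1 gene of this list that fell, and it was also counted among the partners.

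**Figure D4:**
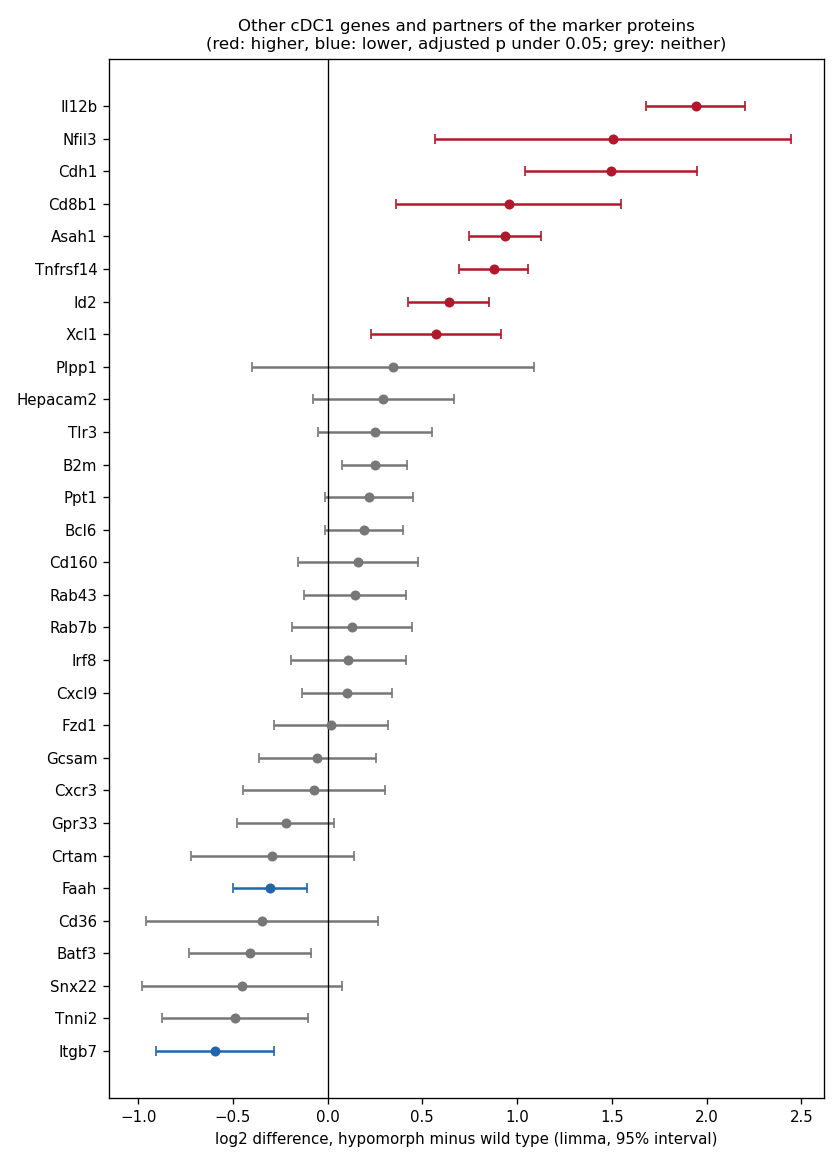
Log2 difference, hypomorph minus wild type, with 95% intervals from limma, for the 21 other cDC1 genes and the partners of the marker proteins, 1 probe set a gene. Il12b is highest at 1.94 and Itgb7 lowest at -0.59; most of the cDC1 genes, Irf8 at 0.11 and Batf3 at -0.41 among them, are grey and did not pass.

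Genes of all conventional dendritic cells went both ways, with 2 of 13 higher and 3 lower, beside 9.63% and 8.32% of all genes. With 1 array left out 1 to 2 were higher and 1 to 3 lower, the fewest without hypomorph replicate 2 or 3, and with trend and robust fitting 4 were higher and 5 lower. Itgax, which encodes CD11c, the protein used to select the cells, was at 10.01, 9.87 and 9.96 in the hypomorph and 10.45, 10.20 and 10.30 in wild type. It fell by 0.37 on the log2 scale (limma adjusted p = 0.0352), a call kept without wild-type replicate 2 and lost without any other array. Zbtb46, a factor of the conventional lineage, fell by 0.63 (limma adjusted p = 0.0103, lost without hypomorph replicate 2 or 3), while its 2 other probe sets were not called. Flt3, the growth factor receptor of dendritic cells, was 0.33 lower without passing (limma adjusted p = 0.0847). Among the genes that rose was Ccr7, the chemokine receptor that guides dendritic cells to lymph vessels, with a log2 change of 1.40.

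Of 18 cDC2 genes measured, 4 rose and 1 fell (limma), beside 9.63% and 8.32% of all genes, with a median log2 change of 0.06. Sirpa, a surface receptor of cDC2 that macrophages carry too, rose 1.95-fold, with 11.10, 10.98 and 11.08 in the hypomorph and 10.07, 10.13 and 10.08 in wild type (limma adjusted p = 0.00111), and both of its other probe sets were also called higher. Clec4a2 rose 2.64-fold and Fcer1g 1.93-fold, and Csf1r also rose (log2 change 1.11). Relb was the 1 gene that fell, by 0.39 on the log2 scale (limma adjusted p = 0.0283). Without passing, Irf4 was 0.54 higher, Esam 0.40 lower and Dtx1 0.30 lower on the log2 scale. Leaving 1 array out gave 4 to 5 higher and 0 to 1 lower cDC2 genes, and quantile normalization gave 4 higher and 3 lower. Among 13 plasmacytoid dendritic cell genes 5 rose and 1 fell, with a median log2 change of 0.41, beside 9.63% and 8.32% of all genes. With 1 array left out 2 to 5 rose and 0 to 1 fell, with 2 higher without hypomorph replicate 2 or 3 or wild-type replicate 3. The difference between the cDC1 markers and these lists was not tested.

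Macrophage genes had the highest median change among the lists. Of 20 genes of splenic macrophages measured, 19 rose and 0 fell (limma), with a median log2 change of 1.83, and their mean level was 10.60 to 10.70 in the hypomorph and 8.59 to 9.25 in wild type. Adgre1, an adhesion receptor gene used as a macrophage marker, read 11.29, 11.33 and 11.35 in the hypomorph and 8.82, 9.31 and 9.51 in wild type, and C1qc, a chain of complement C1q, rose 3.89-fold. The part of macrophage RNA in the higher values of Cadm1, Cd8a and Xcr1 was not tested. Of 9 NK cell genes 0 rose and 0 fell (limma, 1 at an unadjusted p under 0.05). Of 10 neutrophil genes 2 rose and 1 fell, beside 9.63% and 8.32% of all genes.

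**Figure D5:**
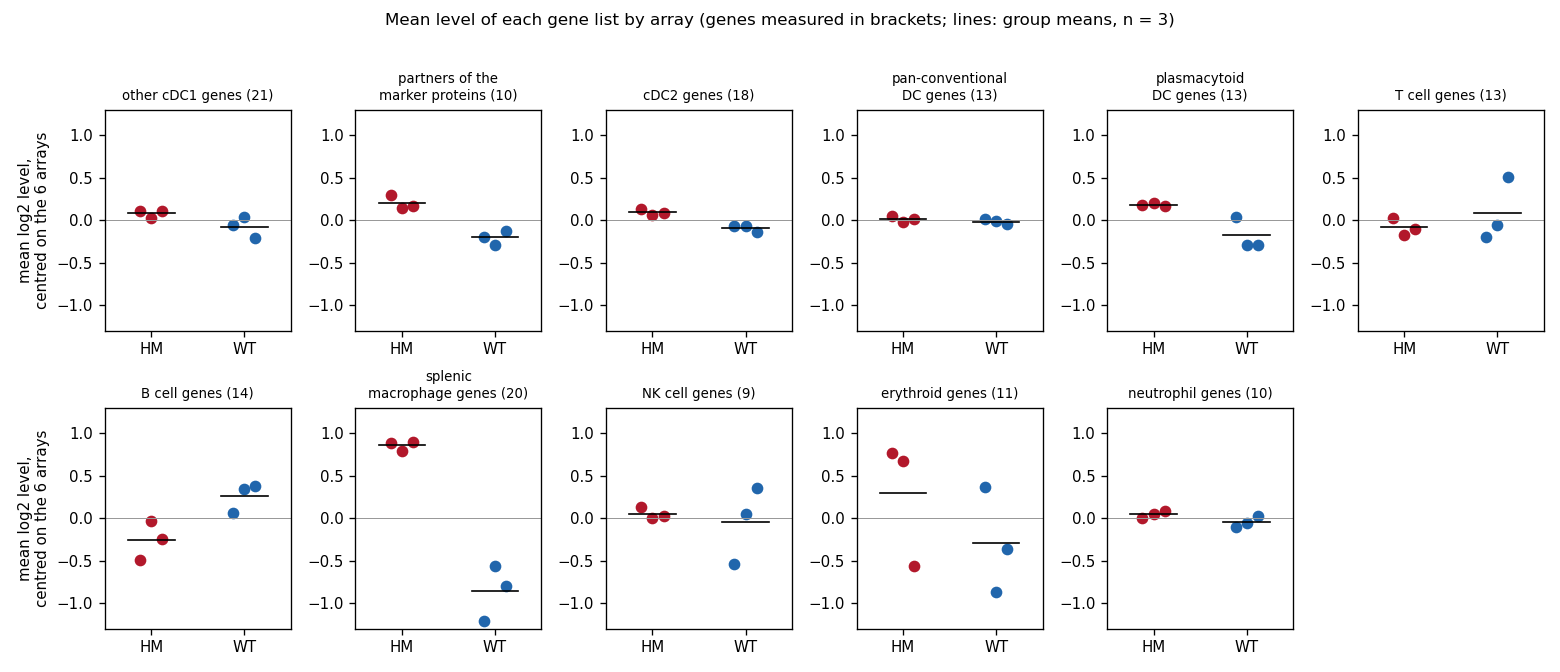
Mean log2 level of each gene list on each array, centred on the mean of the 6 arrays, for 3 hypomorph (HM) and 3 wild-type (WT) arrays, with the number of genes measured in brackets and lines at group means. The macrophage list separates the genotypes most. Without overlap, the mean of the B cell list is lower and those of the partner, cDC2 and plasmacytoid lists are higher in the hypomorph. For cDC2 the median log2 change is 0.06, with 4 of 18 genes called higher and 1 lower. The other cDC1, pan-conventional, T cell, NK cell, erythroid and neutrophil lists overlap.

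The genes whose pattern over the 6 arrays was most like that of each marker were sought among 2124 genes with an SD of at least 0.3. Over 6 arrays in 2 groups such a likeness mainly reflects the gap between genotypes, and it is given as a description. For Cadm1 they were Fcgr1, which encodes the high-affinity receptor for IgG, Dync1li1, a dynein chain gene, and Pilra, an inhibitory receptor gene of myeloid cells, each at a Pearson r of 0.999. Fcgr1 is also among the macrophage genes above that rose (log2 change 2.45). For Xcr1 they were Ptgis (r = 0.987), Ddit4 (0.983) and Cpeb3 (0.979), and for Cd8a by its brighter probe set Snhg16 (0.989), Plin2 (0.974) and Lyplal1 (0.973).

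For Cd24a by its brightest probe set the most similar gene was Tnfrsf13b (r = 0.973), which encodes TACI, a receptor of B cells, followed by Sspn (0.971) and Pdlim1 (0.961). For Naaa they were Clnk (0.977), Nectin4 (0.869) and Siglec1 (0.862), for Ly75 Arhgef3 (0.991), Sos2 (0.968) and Pias2 (0.966), and for Itgae Rgl3 (0.884), Vps25 (0.88) and Klra5 (0.868). The patterns of Naaa, Ly75 and Itgae varied by SDs of 0.11, 0.093 and 0.25 over the 6 arrays. Those of Cd8a, Cd24a and Xcr1 varied by SDs of 0.16, 0.19 and 0.29. The likenesses of all these markers rest on small differences.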

How the data were processed

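Each deposited value is the log2 expression of 1 probe set on 1 array, made by the authors with Affymetrix Power Tools, per the submitters' processing notes. Its version, the background correction and the summarization are not stated in these sources. The log base and a normalization between arrays were inferred from the range (1.96 to 14.33) and close medians (5.65 to 5.71). Such normalization hides differences in total RNA per cell. The table held 22690 probe sets, 64 of them controls and 1 without values. The number of arrays limits the precision.

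The hypomorph and wild-type arrays were tested with limma 3.58.1 under R 4.3.3 (lmFit and eBayes, two-sided) on all 22625 non-control probe sets without a filter, with Benjamini-Hochberg adjustment over them. Rose and fell are used for an adjusted p under 0.05. Names came from the platform annotation, in which 20379 probe sets name 1 gene, 691 several and 1555 none. In gene lists each gene was represented by its brightest probe set, judged on the 6 arrays together. The list of dendritic cell genes holds some that macrophages and B cells also express. The members and lists were chosen with earlier results of these data known. Named genes were every marker probe set, Atg16l1, the measured ones among a list of lineage and partner genes, and genes drawn from the 3 of smallest p among those that passed in each list. Faah, Csf1r, Relb, Irf4, Esam and Dtx1 were named after their values were seen. The genes of most similar pattern were the 3 with the highest Pearson r.

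Pairs of probe sets were compared by exact permutation. Data were simulated from the means and pooled SDs of these 22625 probe sets, with normal noise of the same SD in both groups. In them limma recovered 23.9% of 67 changes of 0.5 on the log2 scale, 82.1% of 67 changes of 1 and 95.5% of 66 changes of 2. Of 138 calls, 4 were unchanged probe sets. Far fewer probe sets were changed than were called on the real arrays (2208 higher and 1748 lower). These rates may therefore not hold for the real comparison. Same-numbered replicates had correlations of deviations of 0.178, 0.0145 and 0.106, and the reported fit did not pair them. Python 3.11.15 with pandas 2.3.3, scipy 1.17.1 and matplotlib 3.10.9 made the tables and plots.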

Additional observations from a re-analysis of the deposited data

How the results depend on the processing

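Alternatives were quantile normalization, centring arrays on their medians, filters on level (above the lower quartile or above the median), single-gene probe sets only, 1 probe set or the mean per gene, trend and robust fitting, array weights, a replicate block, a test against a minimum change of 1.5-fold, the mean of the poly-A spike-ins as a covariate, and leaving out each array. With limma, 6 of the 14 marker probe sets were called higher as reported, 7 with the median filter and with trend and robust fitting, 2 with the minimum change, 0 with the spike-in covariate (3 at an unadjusted p under 0.05 in either direction, in a fit whose standard errors were 2.96 times as large) and 5 to 6 with 1 array left out. Of the 7 genes, 2 were higher as reported, 3 with the median filter, with probe sets averaged per gene and with trend and robust fitting, 1 with the minimum change, 0 with the covariate (1 at an unadjusted p under 0.05), 1 with the replicate block, where the call of Xcr1 was lost (limma adjusted p = 0.0988), and 1 to 2 with 1 array left out. The lower number held without each array other than wild-type replicate 2. A lower probe set and gene (1 each, Cd24a) was called after quantile normalization, with the median filter and with trend and robust fitting, against 0 as reported. The settings also changed the calls over all probe sets. The median filter called 2347 higher and 1879 lower of 11312. Of 22625, trend and robust fitting called 2540 and 2086, quantile normalization 2151 and 1901, and the minimum change 215 and 19. Leaving 1 array out called 1027 to 2104 higher and 395 to 1738 lower.

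The other cDC1 genes had 3 higher and 1 lower as reported, 1 and 0 with the minimum change, 0 and 0 with the covariate (5 at an unadjusted p under 0.05), 2 and 2 with trend and robust fitting, and 2 to 4 higher and 0 to 3 lower with 1 array left out. The change of Atg16l1 was -1.04 with the minimum change (limma adjusted p = 0.0876) and -0.91 with the covariate (limma adjusted p = 0.483). Signs turned for values near 0. Cd24a 1416034_at was -0.28 with the covariate, -0.039 after quantile normalization and -0.040 to 0.097 with 1 array left out. Ly75 was -0.33 with the covariate. Naaa 1452067_at was -0.014 after quantile normalization and -0.023 to 0.11 with 1 array left out, and Naaa 1452068_at -0.069 and -0.030 to 0.028. The cause of these shifts was not tested. Whether the replicate numbers pair the samples was not settled by 3 arrays a group. Hypomorph replicates 1 and 3 correlated best with the wild-type array of the same number (0.178 and 0.106). Hypomorph replicate 2 correlated best with wild-type replicate 3 (0.137). The block lowered the calls over all probe sets to 1429 higher and 886 lower, against 2208 and 1748 as reported.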
